A study of Mus musculus with 6 samples.

Results

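The chemokine ligands are the secreted or membrane-bound proteins that direct the migration of leukocytes. They were taken as every gene whose probe sets carry a single symbol of the form Ccl, Cxcl, Cx3cl or Xcl followed by a number, plus Pf4 and Ppbp and without Cxcl14. The rule found 34 genes, read by 51 probe sets, among the 18193 genes on the array with probe sets of a single symbol. A further 4 probe sets assigned to several genes at once, which read the near-identical copies of Ccl19, Ccl21 and Ccl27, were not used. RNA was taken from interscapular brown adipose tissue (3 arrays) and epididymal white adipose tissue (3 arrays). All samples came from male C57BL/6 mice aged 10 to 12 weeks, which were untreated and kept at ambient temperature, and both tissues were dissected from 3 mice. The study looked for genes that mark one fat or the other. Every sample had an Affymetrix mouse 430_2 array of its own, on which each probe set, a group of short probes for a transcript, receives a signal and a call of present, marginal or absent. Because brown fat came only from the interscapular depot and white fat only from the epididymal one, fat type and depot cannot be told apart.

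Chemokines bind G-protein-coupled receptors on leukocytes and are held on cell surfaces by heparan sulfate, which sets up the gradients along which cells move. They are classed as CC, CXC, CX3C or XC by the spacing of their first cysteines. Inflammatory members are induced by cytokines through NF-kB and interferon signalling, whereas homeostatic members such as Cxcl12 are made constitutively. In fat, adipocytes, their precursors, endothelium and macrophages can all make chemokines, and the monocyte chemoattractant Ccl2 is the member best known for drawing macrophages into white fat.

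Values below are quantile-normalised signals unless stated otherwise, given for arrays 1, 2 and 3 of each tissue. The log2 difference is brown minus white, with its standard error (SE). A gene is called higher in a tissue at an adjusted p under 0.05 from limma, which was fitted to all probe sets with a present call on 3 or more of the 6 arrays and adjusted over 10264 genes (Benjamini-Hochberg). A gene can pass this filter through the arrays of 1 tissue alone. Such a gene is counted only because it was detected where it is high, which also holds for the shares of all genes. The p-values measure the spread between these samples, and the number of arrays limits their precision. A fold given as "at least" belongs to a gene without a present call in the dimmer tissue. It is a bound for detection only and does not bound the spread between arrays. Present calls covered 35.6% to 37.5% of probe sets on brown arrays and 45.2% to 45.8% on white arrays. Below, "called absent" and "undetected" mean without a present call, because only present calls were counted and marginal calls were grouped with absent ones. The median deposited signal was 37.6 to 39.4 on brown arrays and 52.1 to 52.5 on white arrays. The labels were checked with Ucp1, the thermogenic uncoupling protein, at 13251, 12788 and 12788 in brown against 62.5, 4.58 and 11.2 in white, where it was called absent. Lep, which encodes leptin, had 67.2, 32.1 and 63.2 in brown against 1762, 1731 and 1735 in white.

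Of the 34 ligand genes, 17 passed the detection filter and were tested, and 19 had a present call on any array. Of those tested, 2 genes (Ccl27a and Cxcl1) were higher in brown, which is 11.8% of them, while 28.2% of all tested genes were. Another 8 (Ccl6, Ccl9, Pf4, Ccl11, Cxcl9, Ccl2, Ccl8 and Cxcl12) were higher in white, 47.1% of the tested ligands against 32.7% of all tested genes. The remaining 7 were not called, so 10 of 17 were called in either direction, against 61% of all tested genes. The same 10 called genes were those whose arrays did not overlap between tissues, 2 with the higher signals in brown (31.3% of all genes tested) and 8 in white (36% of all genes tested). The median log2 difference was -0.30 over the tested ligands and -0.04 over all genes tested. By class, 8 of 18 CC genes were tested, with 1 called higher in brown and 5 in white. Of the 14 CXC genes 8 were tested, with 1 called in brown and 3 in white.

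**Figure D1:**
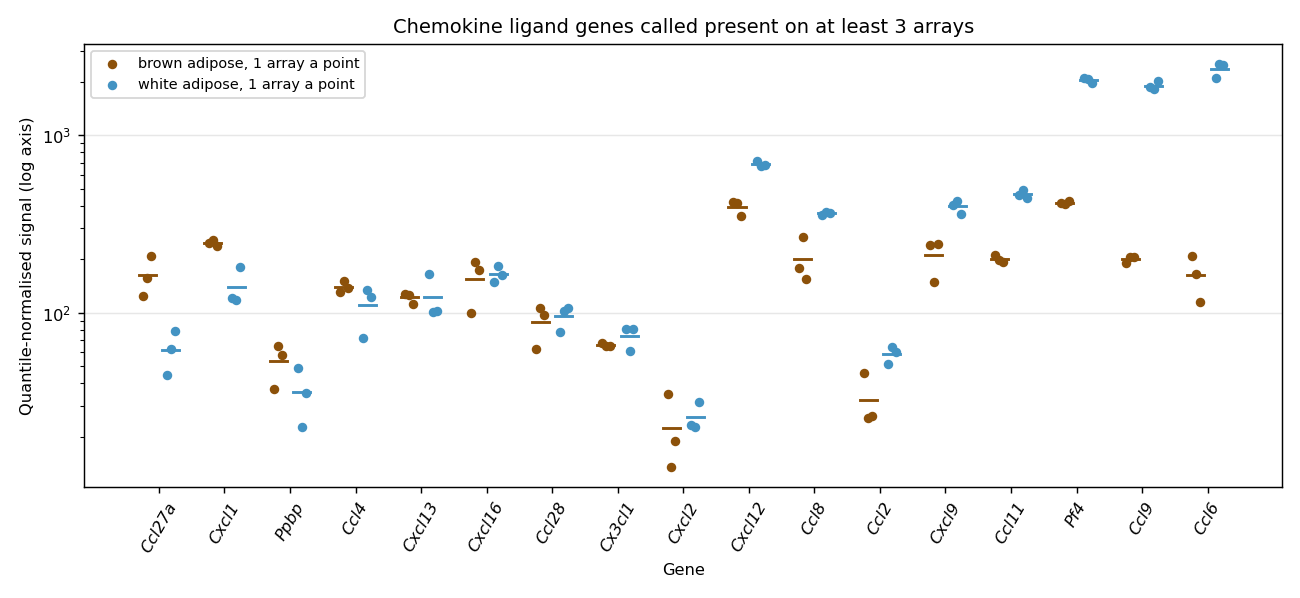
Quantile-normalised signal (log axis) of the 17 tested ligand genes, with 1 point an array and bars at the tissue mean, brown left of white for each gene. The points of Pf4, Ccl9 and Ccl6 at the right lie between 115.7 and 426.5 in brown and between 1830 and 2517 in white.

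**Figure D2:**
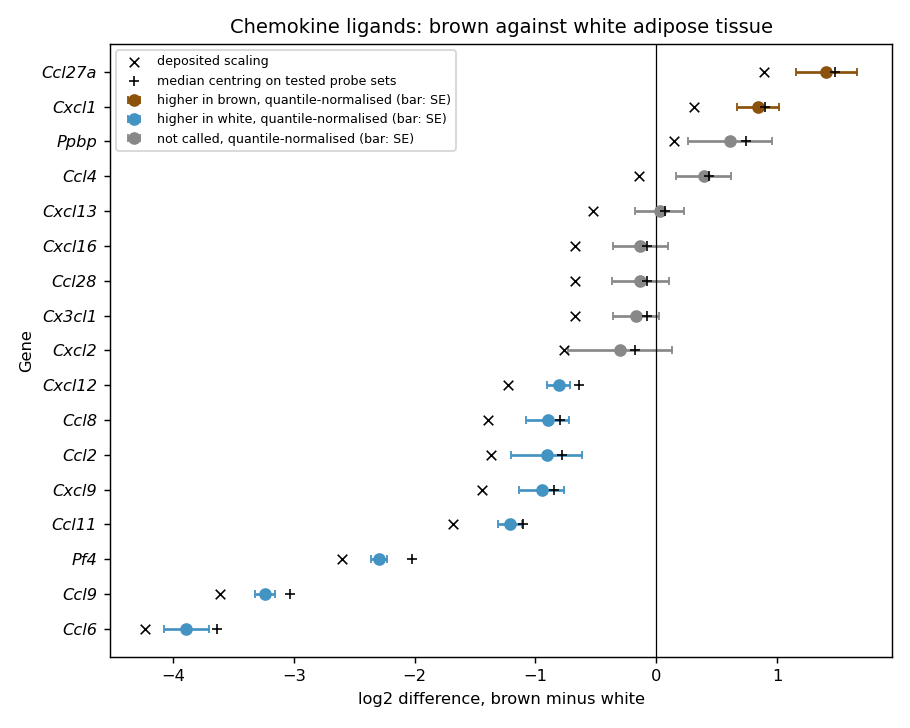
Log2 difference (brown minus white) of the same 17 genes; filled circles with SE bars are the quantile-normalised values, crosses the deposited scaling and plus signs centring on the median of the tested probe sets. Crosses lie to the left of the circles, and Ccl4 and Cxcl13 change sign between them.

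Among the tested ligands, the largest differences belonged to Ccl6 and Ccl9, a pair of mouse CC chemokines that act through CCR1. Ccl6 had signals of 210.3, 165.6 and 115.7 in brown against 2099, 2517 and 2493 in white. Every white array lay far above every brown array. The means were 163.8 ± 47.3 in brown and 2370 ± 234.7 in white (SD, n = 3 each), a 14.8-fold higher level in white (log2 difference -3.89 ± 0.19 SE; limma adjusted p = 6.68e-08). A second Ccl6 probe set was called absent on the brown arrays, at 73.5, 81.7 and 89.8, against 646.8, 642.6 and 766.1 in white, at least 8.39-fold higher in white.

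Ccl9 had signals of 189.7, 207.1 and 207.4 in brown against 1869, 1830 and 2018 in white. The spread within each tissue was small next to the gap between them. The ratio was 9.46-fold in favour of white (log2 difference -3.24 ± 0.08 SE; limma adjusted p = 1.12e-09). Its second probe set was called absent in brown, and the bound was 11.2-fold in favour of white. In whole tissue, fewer cells of a type and less RNA per cell cannot be told apart, which holds for every ligand described here.

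The Ccl6 and Ccl9 genes are next to each other on chromosome 11, and the 250 bases upstream of their annotated starts (RefSeq, GRCm38.p6, minus strand, 5′ to 3′) are shown because these genes had the largest differences. Capitals mark the runs of at least 12 bases that both windows hold.
Ccl6, chr11:83593088-83593337: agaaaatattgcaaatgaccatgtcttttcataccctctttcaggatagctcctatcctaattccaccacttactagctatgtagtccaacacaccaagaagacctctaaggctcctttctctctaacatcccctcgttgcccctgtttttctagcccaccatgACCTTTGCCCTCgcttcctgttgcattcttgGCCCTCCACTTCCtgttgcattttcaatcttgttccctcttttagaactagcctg
Ccl9, chr11:83578637-83578886: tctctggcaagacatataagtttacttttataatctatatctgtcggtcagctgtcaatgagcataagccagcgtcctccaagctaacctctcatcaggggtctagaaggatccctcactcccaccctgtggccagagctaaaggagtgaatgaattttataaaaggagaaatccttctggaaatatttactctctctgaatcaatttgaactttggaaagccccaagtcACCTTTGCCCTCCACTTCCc
The shared runs were ACCTTTGCCCTC, of 12 bases, and GCCCTCCACTTCC, of 13 bases. In the Ccl6 window they began 86 and 55 bases upstream of the start, and in the Ccl9 window 20 and 14 bases upstream, where they overlap. Each run occurred in 3 of the 32851 windows, searched on the gene strand only.

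No other ligand of the MIP-1 group was called after the detection filter. Ccl4 (MIP-1 beta) was called present on all brown arrays, at 130.7, 151.1 and 137.3, and absent on all white arrays, at 71.9, 134.8 and 123.4. The ranges overlapped and the difference was not called (log2 0.39 ± 0.23 SE; limma adjusted p = 0.163). Ccl3 (MIP-1 alpha) and Ccl5 (RANTES) were called absent on all 6 arrays.

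Pf4, platelet factor 4, is a heparin-binding CXC chemokine stored in platelet granules. Its signals were 417.0, 409.7 and 426.5 in brown against 2095, 2086 and 1966 in white. Both tissues were called present throughout, and the arrays within each lay close together. The means were 417.8 ± 8.45 in brown and 2049 ± 72.3 in white (SD, n = 3 each), 4.90-fold higher in white (log2 difference -2.29 ± 0.07 SE; limma adjusted p = 2.94e-09). Ppbp, the precursor of the other main platelet chemokines, had 37.3, 65.0 and 57.9 in brown against 48.6, 22.7 and 35.5 in white. Its arrays overlapped and it was not called (log2 difference 0.61 ± 0.35 SE; limma adjusted p = 0.153).

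The platelet and megakaryocyte markers are given beside Pf4. Their summed signal was 428.5 to 515.5 in brown and 287.5 to 320.0 in white. Gp9, Gp5, Gp6, Itgb3, Clec1b and Treml1 were called absent on all arrays. They made up most of the sum, which therefore gives no level of platelet transcripts. Of the 2 markers tested, Gp1bb was higher in brown, Itga2b was not called, and 0 were called in white. Of all tested genes, 28.2% were called in brown and 32.7% in white. The window upstream of Pf4 (chromosome 5, plus strand) is shown because Pf4 differed while Ppbp beside it did not pass the test. Capitals mark TTCCTC, the reverse complement of GAGGAA, the core of sites for PU.1, an ETS factor of myeloid cells.
Pf4, chr5:90772185-90772434: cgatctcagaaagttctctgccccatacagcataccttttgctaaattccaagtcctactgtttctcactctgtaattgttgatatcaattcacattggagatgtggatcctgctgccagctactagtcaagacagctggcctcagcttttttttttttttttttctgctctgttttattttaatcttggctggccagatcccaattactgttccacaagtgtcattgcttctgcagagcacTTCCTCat
GAGGAA was searched on both strands and occurred in 23.2% of all windows and in 9 of the 27 windows of ligand genes (33.3%), which came from 24 genes.

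Among the monocyte chemoattractants, Ccl2 and Ccl8 were tested and both were higher in white. Ccl8 had signals of 180.0, 266.5 and 155.2 in brown against 354.4, 371.0 and 367.3 in white. The brown arrays varied more than the white ones, but none reached them. The means were 200.5 ± 58.4 in brown and 364.2 ± 8.72 in white (SD, n = 3 each), with a log2 difference of -0.90 ± 0.18 SE (limma adjusted p = 0.00159). Ccl2, the main ligand of CCR2, was called absent on all brown arrays, at 45.6, 25.6 and 26.2, and present on all white arrays, at 51.6, 64.4 and 60.5. Brown array 1 came close to the lowest white array. The ratio was 1.87-fold, a lower bound for detection only (log2 difference -0.91 ± 0.29 SE; limma adjusted p = 0.022). The log2 difference was -0.77 without brown array 2 and -1.18 without brown array 1. The Ccl2 call was lost without brown array 2 (adjusted p = 0.0531), brown array 3 (0.059), white array 2 (0.0803) or white array 3 (0.0688), and with no detection filter (0.0558). Ccl7 had a present call on 2 white arrays only, with signals of 17.0, 32.2 and 26.1 in brown against 31.2, 40.8 and 52.5 in white, and Ccl12 was undetected.

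Ccl11, or eotaxin, acts through CCR3 on eosinophils. It had signals of 212.2, 199.6 and 193.2 in brown against 460.2, 494.9 and 442.6 in white. The tissues were well separated. The means were 201.7 ± 9.67 in brown and 465.9 ± 26.6 in white (SD, n = 3 each), 2.31-fold higher in white (log2 difference -1.21 ± 0.10 SE; limma adjusted p = 3.2e-06). Ccl24, the second eotaxin on the array, was called absent on all 6 arrays although its signals stood apart, at 20.7, 22.0 and 15.1 in brown against 231.1, 173.1 and 198.7 in white. Eosinophil markers summed to 67.1 to 79.5 in brown and 49.4 to 87.9 in white, with Epx, Prg2 and Ccr3 called absent on all arrays and 0 markers tested.

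Of the interferon-gamma-inducible ligands of CXCR3, Cxcl9 alone passed the filter. Its signals were 240.4, 148.5 and 243.2 in brown against 407.2, 425.2 and 360.8 in white. Brown array 2 was the lowest and no brown array reached the white ones. The means were 210.7 ± 53.9 in brown and 397.8 ± 33.2 in white (SD, n = 3 each), 1.93-fold higher in white (log2 difference -0.95 ± 0.18 SE; limma adjusted p = 0.00135). A dimmer Cxcl9 probe set, called absent in brown, was at least 1.58-fold higher in white. Cxcl10 was called absent on all arrays. Cxcl11, which RefSeq lists as a transcribed pseudogene, had present calls on fewer than 3 arrays. The window upstream of Cxcl9 (chromosome 5, minus strand) is shown because Cxcl9 was the detected CXCR3 ligand. Capitals mark 2 overlapping matches to GGG and CC with any 5 bases between them, the general form of an NF-kB site.
Cxcl9, chr5:92328080-92328329: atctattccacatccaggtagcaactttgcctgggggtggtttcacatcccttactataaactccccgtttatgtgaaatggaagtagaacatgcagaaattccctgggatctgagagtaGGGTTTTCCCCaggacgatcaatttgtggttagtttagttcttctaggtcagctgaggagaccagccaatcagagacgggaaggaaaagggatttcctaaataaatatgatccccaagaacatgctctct
This NF-kB form was found on either strand in 45.8% of all windows and in 14 of the 27 ligand windows (51.9%). The core of the interferon-stimulated response element, GAAA repeated after any 2 bases, was found in 2.98% of all windows and in 1 ligand window, that of Cxcl10. TATAAA was found in 12.4% of all windows and in 10 ligand windows (37.0%). These matches describe letters only.

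Both homeostatic CXC ligands were tested and 1 of them, Cxcl12, was higher in white. Cxcl12, which holds CXCR4-bearing cells in tissues, had signals of 421.9, 415.3 and 351.0 in brown against 719.1, 671.4 and 681.6 in white. All white arrays lay above all brown arrays. The ratio was 1.75-fold in favour of white (log2 difference -0.81 ± 0.10 SE; limma adjusted p = 4.68e-05), and a second probe set gave 2.19-fold. Cxcl13, which attracts B cells through CXCR5, had 127.4, 126.7 and 112.0 in brown against 164.8, 100.9 and 102.4 in white. The arrays overlapped and it was not called (log2 difference 0.03 ± 0.20 SE; limma adjusted p = 0.911).

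The membrane-bound ligands Cx3cl1 (fractalkine) and Cxcl16 were detected and not called. Cx3cl1 had 67.4, 65.2 and 64.8 in brown against 81.3, 61.2 and 80.9 in white, ranges that overlapped (log2 difference -0.17 ± 0.19 SE; limma adjusted p = 0.48). Cxcl16 had 100.1, 193.4 and 174.3 in brown against 148.5, 182.6 and 163.1 in white on its brighter probe set, where the log2 difference was -0.13 ± 0.23 SE (limma adjusted p = 0.647). Its other probe set gave a different picture. That probe set was called absent on the brown arrays, at 8.25, 8.0 and 2.81, and present on the white arrays, at 41.9, 46.7 and 62.0, at least 5.88-fold higher in white. The 2 Cxcl16 probe sets thus disagreed, and which of them reads the transcript better was not tested.

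**Figure D3:**
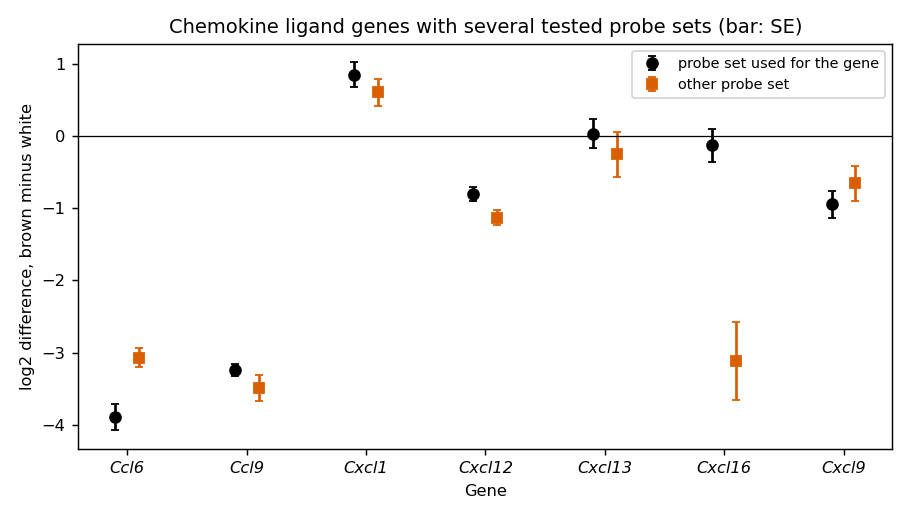
Log2 difference (brown minus white) with SE bars for the 7 ligand genes with several tested probe sets; circles are the probe set used for the gene and squares the other. The probe sets of Cxcl16 lie at -0.13 and -3.12, and those of Cxcl13 on either side of 0, while the other genes have both on the same side.

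The neutrophil-attracting ligands of CXCR2 included 1 gene higher in brown. Cxcl1 had signals of 248.8, 255.8 and 236.8 in brown against 121.3, 117.8 and 182.3 in white. White array 3 was the highest of its tissue and still below every brown array. The means were 247.1 ± 9.57 in brown and 140.5 ± 36.3 in white (SD, n = 3 each), with a log2 difference of 0.84 ± 0.17 SE (limma adjusted p = 0.00191). With the deposited scaling the log2 difference was 0.31 and the call was lost (limma adjusted p = 0.138), and with spike-in scaling likewise (0.148). Cxcl2 had 34.8, 13.5 and 19.0 in brown against 23.3, 22.7 and 31.4 in white, overlapping and not called (log2 difference -0.30 ± 0.43 SE; limma adjusted p = 0.573). Cxcl3 and Cxcl5 were undetected. Of the neutrophil markers, Elane, Mpo, Camp, Ltf and Csf3r were called absent on all arrays and 3 were tested. Ngp was higher in brown, 1 of 3, where 28.2% of all tested genes were called. S100a8 (log2 difference 0.46; limma adjusted p = 0.139) and S100a9 (0.73; limma adjusted p = 0.0951) were not called. The whole list summed to 474.7 to 614.5 in brown and 372.3 to 461.3 in white.

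Ccl27a, a ligand of CCR10 known from skin, was the other gene higher in brown. Its signals were 124.5, 157.0 and 210.1 in brown against 44.9, 62.3 and 78.5 in white. The arrays spread within both tissues without meeting. The means were 163.9 ± 43.3 in brown and 61.9 ± 16.8 in white (SD, n = 3 each), 2.66-fold higher in brown (log2 difference 1.41 ± 0.25 SE; limma adjusted p = 0.00082). Ccl27a and Cxcl1 were tested only on probe sets whose suffix marks probes that can match other transcripts, and Ccl27a has near-identical copies in the mouse genome, so both values are uncertain. The Cxcl1 probe set without that mark was called absent in brown (12.4, 12.9 and 12.9). In white it had 23.9, 9.03 and 24.7, with a present call on 1 array, and it did not pass the filter. Ccl28, the other CCR10 ligand, had 62.2, 106.9 and 97.6 in brown against 77.6, 102.6 and 107.1 in white and was not called (log2 difference -0.13 ± 0.24 SE; limma adjusted p = 0.652).

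Of the 17 ligand genes that were not tested, 15 had no present call on any array. They include ligands of lymphoid homing and T cell traffic: Ccl17 and Ccl22 (CCR4), Ccl20 (CCR6), Ccl25 (CCR9), Ccl1 (CCR8) and Xcl1, the XC class. With no detection filter, all 34 genes entered the test over 18193 genes, and 4 were higher in brown (11.8%, against 18.6% of all genes) and 10 in white (29.4%, against 19.2% of all genes). Those 14 calls compare with 37.9% of all genes called in either direction. The 5 undetected genes among these calls were Cxcl15 and Cxcl17 in brown and Ccl24, Ccl5 and Cxcl10 in white. Cxcl17, a mucosal chemokine, had 188.9, 201.6 and 142.7 in brown against 85.0, 97.2 and 70.3 in white (limma adjusted p = 0.00148). Cxcl15, known from mouse lung epithelium, had 60.4, 72.9 and 61.1 in brown against 8.35, 32.8 and 28.1 in white (limma adjusted p = 0.0259). Ccl24 had a limma adjusted p of 3.58e-06 by this test. Ccl5 had 18.5, 4.03 and 7.61 in brown against 43.5, 76.4 and 76.9 in white (limma adjusted p = 0.0037), and Cxcl10 had 23.9, 11.5 and 12.5 in brown against 34.4, 34.2 and 45.4 in white (limma adjusted p = 0.0459). No fold is given for these genes, because a signal called absent has no level.

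**Figure D4:**
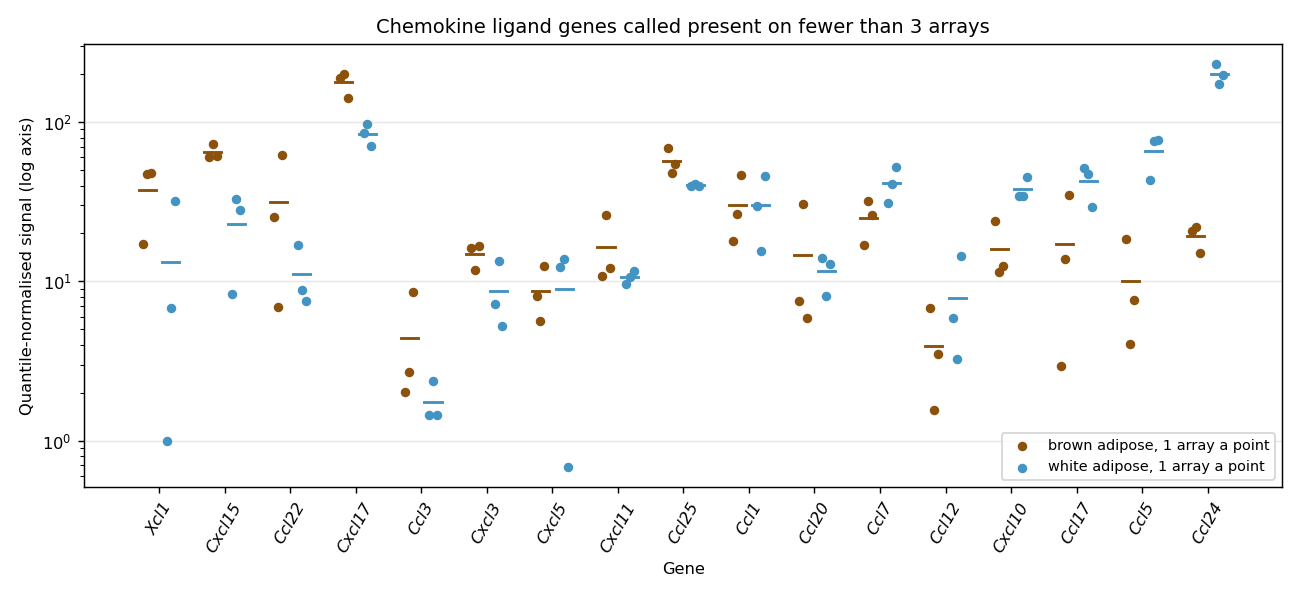
Quantile-normalised signal (log axis) of the 17 ligand genes with too few present calls for the test, with 1 point an array and bars at the tissue mean, brown left of white. Ccl24 and Ccl5 lie higher in white and Cxcl17 and Cxcl15 higher in brown, although all 4 were called absent on every array.

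Ligand genes that lie next to each other in the genome (RefSeq order of protein-coding genes) did not all carry the same call. In the run of 6 genes Ccl2, Ccl7, Ccl11, Ccl12, Ccl8 and Ccl1, 3 were higher in white and the other 3 were not tested. In the run of 5 genes Ccl5, Ccl9, Ccl6, Ccl3 and Ccl4, Ccl9 and Ccl6 were higher in white, Ccl4 was not called and the others were not tested. The run of 7 CXC genes Cxcl5, Ppbp, Pf4, Cxcl3, Cxcl15, Cxcl1 and Cxcl2 held Pf4, higher in white, and Cxcl1, higher in brown. The Cxcl1 call was lost with the deposited and with the spike-in scaling. Ppbp and Cxcl2 were not called and the others were not tested. Of all tested genes, 28.2% were called in brown and 32.7% in white.

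The array read 16 chemokine receptor genes with a symbol of their own, and 6 were tested. By limma 0 of the 6 were higher in brown, and likewise 0 at an unadjusted p under 0.05, while 3 were called in white, against 28.2% and 32.7% of all tested genes (median log2 difference -1.09, all genes -0.04). Ccr1, the receptor of Ccl6 and Ccl9, was called absent on the brown arrays, at 29.8, 9.87 and 8.57, against 132.2, 120.5 and 108.1 in white, at least 8.65-fold higher in white (limma adjusted p = 0.000154). Ccr2, the monocyte receptor of Ccl2, had 77.4, 54.8 and 62.1 in brown against 209.1, 272.7 and 206.2 in white, 3.55-fold higher in white (limma adjusted p = 1.37e-05). Cxcr4, the receptor of Cxcl12, had 23.9, 26.6 and 20.6 in brown against 85.4, 62.8 and 76.2 in white, 3.15-fold higher in white (limma adjusted p = 0.000282). White arrays lay above brown arrays throughout for Ccr1, Ccr2 and Cxcr4. Cxcr3, Cxcr5 and Cxcr6 were tested and not called, with log2 differences of -0.27, -0.52 and -0.07. Ccr3 and Cxcr2, the receptors of the eotaxins and of Cxcl1, were called absent on all arrays.

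Of the atypical receptors and relatives, 5 of 8 listed genes were tested, with 1 call in brown and 2 in white (all genes 28.2% and 32.7%). Ackr3, which takes up Cxcl12, was the 1 gene higher in brown, at 1124, 1153 and 1239 in brown against 661.4, 750.0 and 620.4 in white (log2 difference 0.79 ± 0.09 SE; limma adjusted p = 2.63e-05). Its probe set carries a suffix that marks probes able to match other transcripts, so the Ackr3 value is uncertain too. Ackr1, a chemokine-binding receptor of venules, had 123.9, 144.0 and 95.6 in brown against 219.9, 252.6 and 201.1 in white and was higher in white (log2 difference -0.90 ± 0.17 SE; limma adjusted p = 0.0012). Cmklr1, the chemerin receptor, was at least 10.8-fold higher in white.

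Genes that act on chemokines after secretion were mostly higher in white, where 32.7% of all tested genes were called, against 28.2% in brown. Of 11 tested proteases known to cleave chemokines, limma called 0 in brown (0 at an unadjusted p under 0.05) and 10 in white (median log2 difference -1.26). They included Mmp12, a macrophage metalloprotease (at least 12.0-fold), Anpep (at least 9.87-fold), Dpp4 (at least 4.26-fold) and Ctss, at 280.0 ± 8.42 in brown and 1248 ± 87.0 in white (SD, n = 3 each). On the probe sets used, Mmp12, Anpep, Dpp4 and Mmp9 passed the filter through the white arrays alone, so their white calls are no independent count. Without brown array 1 the log2 difference of Dpp4 was -1.36 in place of -2.13 and that of Mmp12 -3.23 in place of -3.83. That of Dpp4 was -2.79 without brown array 2 and -3.27 averaged over probe sets. Of 16 tested heparan sulfate proteoglycan and synthesis genes, 1 was higher in brown and 12 in white (median -0.88). Sdc1 (at least 3.34-fold), Gpc3 (at least 2.65-fold), Gpc4 (log2 difference -1.35) and Sdc2 (-1.19) were among those higher in white. Sdc1, Gpc1, Gpc3 and Gpc6 passed the filter through the white arrays alone. Agrn was the gene higher in brown (log2 difference 0.48), which became -0.06 with the deposited and with the spike-in scaling.

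Among the upstream pathways, set beside 28.2% of all tested genes called in brown and 32.7% in white, the 11 tested NF-kB genes held 2 calls in brown and 5 in white (median log2 difference -0.27). Tnfaip3, an inhibitor that NF-kB induces, exceeded its brown level at least 4.44-fold in white, and Rela, a subunit, averaged 546.5 ± 59.3 in brown and 1101 ± 78.1 in white (SD, n = 3 each). Birc3 (log2 difference -0.93) and Ikbkb (-0.73) were also higher in white. Bcl3, an atypical inhibitor family member, averaged 155.8 ± 13.3 in brown and 50.8 ± 11.4 in white (SD, n = 3 each) and was higher in brown. Nfkbib was higher in brown too (log2 difference 0.61), a call lost with the deposited scaling (0.08). The Nfkbib probe set also carries the suffix of probes that can match other transcripts. Of 7 tested inducing cytokines and cytokine receptors, 0 were higher in brown (0 at an unadjusted p under 0.05) and 5 in white (median -0.83), among them Tnfrsf1b (at least 3.57-fold), Il13ra1 (log2 difference -1.21), Il6ra (-0.98) and Il4ra (at least 1.78-fold). Il6ra had a log2 difference of 0.35 with no detection filter and Il4ra one of 0.73 when presence on all 6 arrays was required. The calls of Il13ra1 with no filter (-0.16) and of Il4ra averaged over probe sets (-0.05) were lost. Both changes of filter chose the probe set anew, so the values of Il6ra (0.35), Il13ra1 (-0.16) and Il4ra (0.73) come from other probe sets. In the main fit, Tnfaip3, Birc3, Tnfrsf1b and Il4ra passed the filter through the white arrays alone. The cytokines Tnf, Ifng and Il6 were called absent on all arrays.

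**Figure D5:**
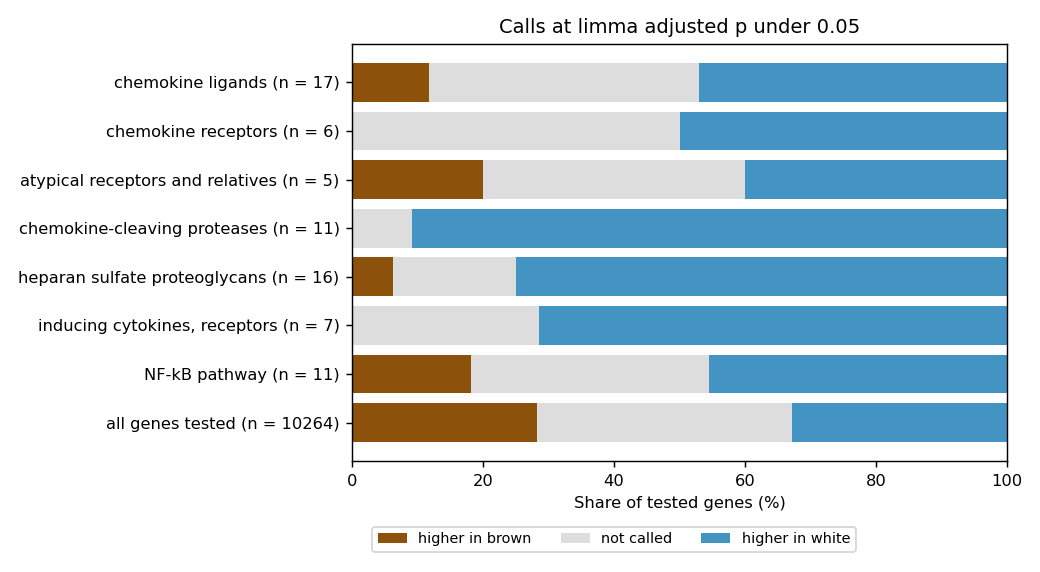
Share of tested genes (%) called higher in brown, not called or higher in white at a limma adjusted p under 0.05, for the ligands, the related gene lists and all genes tested (n is the number tested). Among the ligands 11.8% were called in brown and 47.1% in white, against 28.2% and 32.7% of all genes.

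Markers of cells that make or answer chemokines differed from list to list. Of all tested genes, 28.2% were called in brown and 32.7% in white. Of 13 tested macrophage markers limma called 0 in brown (0 at an unadjusted p under 0.05) and 12 in white, and the 15 listed markers summed to 3262 to 3690 in brown and 19755 to 20571 in white, with Msr1 called absent on all arrays. All 11 mesothelial markers were higher in white, with sums of 338.5 to 384.8 in brown and 4522 to 4555 in white. All 11 were present on every white array but only 1 on every brown array, so most passed the filter through white alone. Of 12 fibroblast and matrix markers 11 were higher in white, with sums of 10559 to 11240 in brown and 41317 to 42006 in white. B cell markers summed to 295.2 to 469.3 in brown and 4788 to 5750 in white. Ighm, an immunoglobulin heavy chain gene, carried most of the white sum, at 110.2, 146.3 and 96.8 in brown against 5493, 4528 and 4654 in white. Ms4a1 was tested and not called, and Cd79b, Pax5 and Blk were called absent on all arrays. The part of these cells in the ligand differences was not tested. Of 10 tested endothelial markers, 1 was called in brown and 6 in white. Their sums were 3254 to 3531 in brown and 4741 to 4812 in white. All 5 tested lymphatic endothelial markers were higher in white, and Prox1 was called absent on all arrays. This list summed to 368.5 to 448.8 in brown and 1394 to 1508 in white. T and NK cell markers summed to 606.3 to 674.3 in brown and 526.7 to 647.1 in white. Cd3d, Cd3e, Cd3g, Cd4, Cd8b1, Zap70, Gzmb, Nkg7 and Foxp3, which made up most of these sums, were called absent on all arrays. Dendritic cell markers summed to 367.5 to 506.8 in brown and 462.0 to 518.3 in white. Of 3 tested, Zbtb46 was higher in brown and Itgax and Cd209a in white. Flt3, Xcr1, Ccr7 and Siglech were called absent on all arrays. Mast cell markers summed to 412.5 to 508.4 in brown and 528.1 to 635.6 in white, with no tested marker called. Markers shared by both adipocyte types had 7 genes tested, with 0 called in brown (0 at an unadjusted p under 0.05) and 5 in white. Their sums were 46331 to 47991 in brown and 62219 to 63188 in white. All 11 tested brown adipocyte markers were higher in brown and all 8 tested white adipocyte markers in white.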

How the data were processed

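Gene expression in brown and white adipose tissue was measured on 6 arrays, 3 a tissue, grouped by the sample titles. Per the file headers, the authors deposited, per probe set, a linear signal intensity, a present, marginal or absent call and a detection p-value. Neither software version, nor intensity scaling, nor genome build is given in the sources used here. A series-wide table of signal intensities that the authors deposited runs opposite to the array files in tissue and served as an alternative only, with column medians of 64.3, 62.9 and 63.8 (named brown) and 56.7, 56.8 and 55.9 (named white). Its processing and centring are not known.

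Between arrays, 2% trimmed means differed by 37.2%, above a limit of 10%, so log2 signals were quantile-normalised, with a signal of 0 set to 0.1 first. Probe sets present on at least 3 of 6 arrays (19819) entered the test (R 4.3.3, limma 3.58.1, lmFit and eBayes with trend). The tested probe set with the highest mean log2 signal stood for each of 10264 genes, with Benjamini-Hochberg adjustment over these genes and a threshold of 0.05. Means and SDs are of linear signals, and folds are ratios of geometric means. Where the dimmer tissue was absent on all arrays, each of its arrays was given a floor. The floor was its own signal or, if that was lower, the lowest signal with a present call. The fold is then a lower bound for detection only, not for the spread between arrays. The fit was tested on simulated data.

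The members, gene lists and naming rule were chosen with earlier results of these data known. All ligand genes are named, as are, from each related list, up to 4 called genes in the direction of most calls and up to 2 in the other. A related list is not reported here. All 34 symbols matched RefSeq. Windows of 250 bases upstream were taken from RefSeq promoters (GRCm38.p6). Alternatives covered scaling, detection filter, probe set choice, the trend, the replicate block and leaving out each array.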

Additional observations from a re-analysis of the deposited data

How the results depend on the processing

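The main counts of tested ligands were 2 higher in brown and 8 in white. The count in brown was 1 under deposited scaling, 1 under spike-in scaling, 4 with no filter and 0 without probe sets that can match other transcripts. The count in white was 12 of 17 under deposited and 11 under spike-in scaling. In the series table as named, 9 were higher in brown and 1 in white, its tissues running opposite. Leaving out each array in turn gave 2 in brown and 7 to 8 in white. With the replicate block the counts were 2 and 8. Whether equal numbers mark the same mouse is not stated. Same-numbered arrays had deviations correlated at 0.02, -0.01 and -0.05, and arrays of differing numbers at -0.05 to 0.07. This check could not tell whether the numbers pair the samples, and the main fit was left unpaired. Receptors in brown numbered 1 with no filter, and in white 5 under deposited scaling and 0 when presence on all 6 arrays was required, a filter that left 1 receptor and that Ccr1, Ccr2 and Cxcr4 could not pass. Among ligands not called, the log2 difference of Ccl4 was -0.14 with the deposited and -0.14 with spike-in scaling. That of Cxcl13 was -0.52 with both, -0.08 with median centring, -0.25 with presence on all 6 arrays, -0.11 averaged over probe sets and -0.09 to 0.26 with each array left out. Leaving out each array gave -0.29 to 0.11 for Ccl28, -0.31 to 0.16 for Cxcl16 and -0.67 to 0.01 for Cxcl2. With the deposited scaling Cxcl13 (-0.52, adjusted p = 0.0385 from limma), Ccl28, Cx3cl1 and Cxcl16 (-0.67 each) became called in white. Adding 64 signal units shrank the difference of Ccr1 to -1.21, of Ccr2 to -1.18 and of Cxcr4 to -0.66, with the calls kept. Agrn was -0.06 with the deposited and with spike-in scaling, Il6ra 0.35 with no filter and Il4ra 0.73 with presence on all 6 arrays. The filters chose the probe set of a gene anew, so these values of Il6ra and Il4ra come from other probe sets. The same holds for Cxcl13 with presence on all 6 arrays. The cause of the other changes was not tested. The median of all genes was -0.50 and that of the ligands -0.76 with the deposited scaling, against -0.04 and -0.30 after quantile normalisation. Centring on tested probe sets, chosen after seeing the data, gave 0.09 and -0.18 with 2 and 8 calls. Genes near background, such as Ccl2 and Cxcl2, are the least certain, and 3 arrays a tissue limit the precision of all.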
